A study of Homo sapiens with 12 samples.

Results

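The regions described here were stretches of open chromatin that lay well inside genes and were called in each of 12 ATAC-seq libraries of MIAPaCa2 cells. MIAPaCa2 is an established line of human pancreatic ductal adenocarcinoma. Overlapping peaks of the 12 libraries (at least 1 bp, chromosomes 1 to 22 and X) were merged into 178040 regions. Of these, 24148 held a peak in 12 of 12 libraries, and 22873 of those were narrower than 2000 bp. The set comprised 4559 regions that also overlapped a RefSeq gene and lay more than 5 kb from any gene start or end, which was 18.9% of the regions called in 12 of 12 libraries. Members were selected on the presence of a peak in every library, the merged width and the position, and none of these was tested. For comparison, the same presence and width held for 11371 regions within 1 kb of a gene start or end and for 3253 regions that overlapped no gene and lay more than 5 kb from one.

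ATAC-seq inserts sequencing adapters into open chromatin with the Tn5 transposase, and the authors called broad peaks in each library separately. Parental cells and oxamate-resistant cells were each left untreated or treated with oxamate, a pyruvate analog that inhibits lactate dehydrogenase, which gave 4 groups of 3 libraries. The resistant cells were 1 population that had survived prolonged oxamate exposure of the parental line, and no other alteration was stated for any group. The labels did not say that the libraries of a group came from separate cultures, so p-values measured only the spread between these libraries. Genes that mark this carcinoma line (KRT8, KRT18 and VIM) had a peak at or near a gene end (1 kb or less) in 12 of 12 libraries. CDKN2A and MTAP, which this line has lost, had one in 0, as did the markers PTPRC, CD3E, PECAM1, CDH5, INS and GCG of blood, vessel and islet cells. The acinar genes PRSS1 and CPA1 had one in 1 library each.

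Open chromatin inside a gene can mark an enhancer, a stretch of DNA bound by transcription factors that acts on the promoter of its host or of a neighbouring gene. It can also mark an internal promoter, from which a shorter isoform of the host is transcribed, or a site bound by an architectural protein such as CTCF. Many promoters lie in CpG islands, where the dinucleotide CG is frequent, whereas most enhancers do not. Peak position alone does not tell these apart, but an annotated transcription start under a region does place a known promoter there.

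Each annotated start was given a window of 300 bases, from 250 before to 50 after the start. Such windows overlapped 453 of the 4559 regions (9.94%), and the other 4106 overlapped none. Below, a start counts as under a region, and a region as over a start, where region and window overlapped. The start itself can then lie outside the region. Upstream sequences of 250 bases are shown for the outer start and an internal start of 4 genes, because in these genes the outer start had no peak in any of the 12 libraries while the internal start lay under a constitutive region. A single internal start in LMNA is added, because it lay in the most densely occupied of the leading host genes. These genes were chosen after their values were seen. The sequences are from RefSeq (GRCh38.p14) and run 5′ to 3′ on the gene's strand up to the base before the start, with each CG dinucleotide in capitals.

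MACF1 encodes a giant protein that crosslinks microtubules and actin. Its outer start (chr1:39083917-39084166, plus strand) had 0 CG dinucleotides in the 250 bases before it. Its internal start, 324.9 kb into the gene (chr1:39408823-39409072, plus strand), had 32 and lay in a region of 1810 bp (chr1:39407894-39409703).
MACF1 outer start: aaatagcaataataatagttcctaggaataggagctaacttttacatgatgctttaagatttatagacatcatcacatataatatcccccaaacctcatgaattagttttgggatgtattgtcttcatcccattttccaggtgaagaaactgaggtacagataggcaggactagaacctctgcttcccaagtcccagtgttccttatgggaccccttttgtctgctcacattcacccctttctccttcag
MACF1 internal start: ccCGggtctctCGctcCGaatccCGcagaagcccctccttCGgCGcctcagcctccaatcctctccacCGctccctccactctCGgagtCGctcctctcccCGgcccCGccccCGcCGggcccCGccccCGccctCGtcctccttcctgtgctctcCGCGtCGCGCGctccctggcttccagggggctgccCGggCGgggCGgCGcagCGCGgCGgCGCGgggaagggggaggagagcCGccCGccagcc

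DST encodes dystonin, a related crosslinker of the plakin family. Here the contrast ran the other way, since the outer start without a peak (chr6:56954831-56955080, minus strand) had 39 CG dinucleotides. The internal start, 102.9 kb into the gene (chr6:56851906-56852155, minus strand), had 4 and lay in a region of 1845 bp (chr6:56850538-56852382).
DST outer start: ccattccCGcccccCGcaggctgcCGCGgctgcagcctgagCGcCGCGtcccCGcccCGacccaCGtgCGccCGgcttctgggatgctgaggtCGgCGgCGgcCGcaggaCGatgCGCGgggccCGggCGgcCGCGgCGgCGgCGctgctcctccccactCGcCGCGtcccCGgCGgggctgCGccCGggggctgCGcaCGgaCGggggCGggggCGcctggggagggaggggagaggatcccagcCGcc
DST internal start: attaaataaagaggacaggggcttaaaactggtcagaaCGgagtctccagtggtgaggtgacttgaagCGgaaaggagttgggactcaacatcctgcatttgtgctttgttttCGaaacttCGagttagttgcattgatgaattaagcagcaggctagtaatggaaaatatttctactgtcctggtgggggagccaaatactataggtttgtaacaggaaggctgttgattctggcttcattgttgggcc

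DAB2IP encodes a GTPase-activating protein. The outer start (chr9:121566824-121567073, plus strand) had 10 CG dinucleotides, and the internal start 84.6 kb into the gene (chr9:121651384-121651633, plus strand) had 28.
DAB2IP outer start: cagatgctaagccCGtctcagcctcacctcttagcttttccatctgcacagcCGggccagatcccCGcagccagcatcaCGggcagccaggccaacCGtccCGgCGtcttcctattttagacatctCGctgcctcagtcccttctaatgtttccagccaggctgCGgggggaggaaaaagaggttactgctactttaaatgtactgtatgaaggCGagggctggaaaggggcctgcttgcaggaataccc
DAB2IP internal start: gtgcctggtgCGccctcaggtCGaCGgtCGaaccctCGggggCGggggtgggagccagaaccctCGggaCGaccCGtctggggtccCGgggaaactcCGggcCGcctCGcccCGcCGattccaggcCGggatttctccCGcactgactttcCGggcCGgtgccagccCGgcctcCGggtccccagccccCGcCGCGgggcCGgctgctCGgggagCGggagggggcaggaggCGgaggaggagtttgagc

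BDH1 encodes a mitochondrial dehydrogenase that interconverts the ketone bodies acetoacetate and 3-hydroxybutyrate. The outer start (chr3:197573344-197573593, minus strand) had 1 CG dinucleotide, and the internal start 17.4 kb into the gene (chr3:197555969-197556218, minus strand) had 34.
BDH1 outer start: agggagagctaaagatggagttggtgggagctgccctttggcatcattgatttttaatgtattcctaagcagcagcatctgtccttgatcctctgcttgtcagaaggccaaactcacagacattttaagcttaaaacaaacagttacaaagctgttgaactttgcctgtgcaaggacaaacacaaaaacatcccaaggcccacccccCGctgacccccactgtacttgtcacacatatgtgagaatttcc
BDH1 internal start: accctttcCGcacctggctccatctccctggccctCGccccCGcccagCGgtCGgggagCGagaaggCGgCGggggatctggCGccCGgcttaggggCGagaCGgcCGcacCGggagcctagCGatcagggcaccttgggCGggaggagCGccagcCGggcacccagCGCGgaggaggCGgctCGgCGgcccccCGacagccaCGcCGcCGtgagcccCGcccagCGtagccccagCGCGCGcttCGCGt

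LMNA encodes the nuclear lamins A and C. Its internal start 24.1 kb into the gene (chr1:156106466-156106715, plus strand) had 18 CG dinucleotides in the 250 bases before it. A region of 594 bp (chr1:156106018-156106611) overlapped part of these bases but ended before the start itself. The outer start of LMNA held a peak in 12 of 12 libraries as well.
LMNA internal start: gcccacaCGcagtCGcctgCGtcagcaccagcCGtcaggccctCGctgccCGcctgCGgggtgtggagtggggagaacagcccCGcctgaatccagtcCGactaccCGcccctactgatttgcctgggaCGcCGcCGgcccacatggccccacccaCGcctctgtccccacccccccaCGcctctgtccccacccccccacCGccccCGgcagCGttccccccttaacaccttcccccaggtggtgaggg

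Over all 556 annotated start windows that overlapped a member (300 bases, from 250 before to 50 after the start), the median number of CG dinucleotides was 24.5. It was 14 over all 34961 start windows of the RefSeq table and 4 over the 2050 starts that lay equally deep in a gene but had no peak in any library. The GC box, searched on both strands as GGGCGG, occurred in 63.5% of the windows under a member, 45.0% of all windows and 17.8% of deep windows without a peak. This motif holds a CG dinucleotide itself, so both counts overlap. The TATA box, searched as TATAAA, had the opposite order, with 4.68% under a member, 11.5% of all windows and 19.9% of deep windows without a peak. The CCAAT box (CCAAT) was present in 39.0%, 34.6% and 33.2%, and the AP-1 site (TGACTCA) in 6.83%, 4.92% and 6.93% of the same sets. Of the 3059 starts more than 5 kb inside a gene, 21.2% held a peak in 12 of 12 libraries and 67.0% held one in none.

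Regions over an internal start were wider and ranked nearer the top of the peak lists than the others. Their median width was 1180 bp, against 683 bp without a start. Each library's peaks were ranked by −log10 q, so that a low percentile is a strong peak, and the median percentile over libraries was 19.1 with an internal start and 30.8 without. Of those with an internal start 11.0% lay in the top 10% of every list, against 2.39% of the others. The share of deep regions over a start was 0.246% of 46776 regions called in 1 library, 0.942% of 12308 called in 2 to 6, 1.85% of 5392 called in 7 to 11 and 9.94% of the members. Bases covered by peaks averaged 793 ± 76.5 bp (SD, n = 3) over an internal start and 450 ± 54.5 bp elsewhere in untreated parental libraries. They averaged 600 ± 49.8 and 328 ± 35.1 bp in oxamate-treated parental, 944 ± 83.5 and 542 ± 66.7 bp in untreated resistant, and 901 ± 101 and 510 ± 72.0 bp in oxamate-treated resistant libraries. Within a library the former exceeded the latter by 0.80 to 0.87 on the log2 scale as group means, so the gap was present in all 4 groups.

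Among the strongest regions over an internal start were those of RUVBL1, ZNF574 and L3MBTL1. The region in RUVBL1, which encodes an ATPase of chromatin-remodelling complexes, had a median percentile of 0.557, that in ZNF574, a zinc-finger gene, 0.458, and that in L3MBTL1, which encodes a chromatin-binding protein, 0.532. BDH1 stood at 0.571 and JMJD1C, a gene of the JmjC demethylase family, at 0.614. ASNS encodes asparagine synthetase, and its region 56.3 kb into the annotated gene had a percentile of 1.26. These were named after their values were seen.

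Members ranged from 129 to 1996 bp in width, with a median of 715 bp and quartiles of 540 and 1031 bp. The median was 1133 bp near gene ends and 679 bp between genes. A single unbroken peak per library made up 3935 members (86.3%) in every list. The nearest gene start or end lay between 5004 and 421471 bp away, at a median of 14408 bp, and 457 members (10.0%) were more than 50 kb away. Another member lay within 10 kb for 999 (21.9%), and 243 members lay in 2 or more overlapping genes. Members were seldom among the strongest peaks, since 3.25% ranked in the top 10% of every list, against 16.8% near gene ends and 4.24% between genes.

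At the limits of width and distance that set the membership, the values inside and outside were as follows. The 39 members 1900 bp or wider averaged 1133 covered bp per library with a median percentile of 26.8, and the 35 otherwise similar regions up to 100 bp beyond the limit of 2000 bp averaged 1162 bp and 36.1. The 360 members within 1 kb above the distance limit of 5000 bp averaged 488 bp (percentile 30.0), and the 418 regions within 1 kb below it averaged 485 bp (27.9). Regions just outside the limit on presence were mostly missing in treated parental cells. Of 1392 deep regions called in 11 of 12 libraries, 505 lacked a peak in treated parental replicate 1, 487 in treated parental replicate 3 and 132 in treated parental replicate 2, and between 7 and 83 in each of the other libraries. Where called, those regions averaged 319 bp and a percentile of 48.0, against 493 bp and 29.8 for members.

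Along the gene, regions were spread broadly. For the 3344 pairs of member and host whose strand and outer start were known, 5 equal segments from start to end held 14.8%, 22.9%, 24.0%, 22.7% and 15.6%. The distance limit by itself shortens the outer segments, so their lower shares were no finding. The median distance from the outer start was 45.7 kb.

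Covered bases per member were lowest in treated parental cells. Untreated parental replicates 1 to 3 covered 513, 520 and 419 bp per member, and treated parental replicates 314, 384 and 367 bp. Untreated resistant replicates covered 655, 520 and 571 bp, and treated resistant replicates 608, 465 and 575 bp. The treated parental libraries lay below all 9 others, and the remaining groups overlapped. Group means were 484 ± 56.6, 355 ± 36.5, 582 ± 68.4 and 549 ± 74.8 bp (SD, n = 3), in the same order. Members held 9.29 ± 0.0641, 9.52 ± 0.752, 9.22 ± 0.329 and 9.48 ± 0.455% of all bases under peaks in these groups (SD, n = 3).

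**Figure D1:**
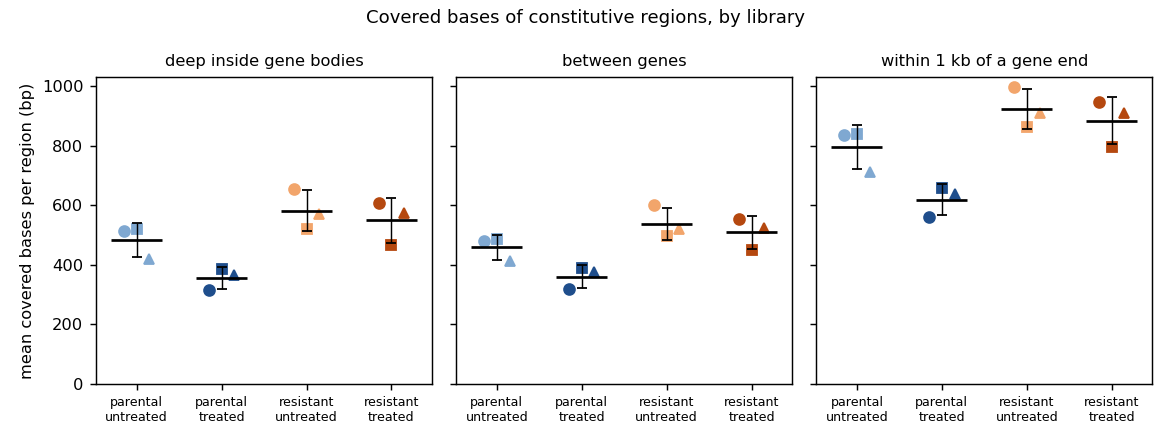
Mean bases covered by peaks per region (bp) in each library, for the members, the regions between genes and the regions near gene ends. Points are libraries (circle, square and triangle for replicates 1, 2 and 3), bars are group means and error bars the SD (n = 3); treated parental cells had the lowest mean in each class, 355 bp for the members.

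Resistant libraries covered 146 bp more per member than parental ones, which a two-sided exact permutation test within treatments placed at p = 0.01 (adjusted p = 0.16 over 16 tests by the Benjamini-Hochberg procedure). The difference of treated from untreated libraries was −80.8 bp (exact permutation p = 0.07, adjusted p = 0.196). For parental cells alone it was −129 bp with no overlap of the groups, and the exact permutation p of 0.1 was the smallest that 3 against 3 libraries allow. The corresponding value in resistant cells was −32.6 bp (exact permutation p = 0.7), and the difference of both treatment effects was 96.4 bp (exact permutation p = 0.28). Resistant libraries exceeded parental ones by 194 bp under treatment, without overlap (exact permutation p = 0.1), and by 97.8 bp without it (exact permutation p = 0.2). None of the 16 tests passed the adjustment. A single test could not have passed it alone, even at the smallest possible p of 0.005, so this does not show that the groups were equal.

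Technical values moved with these groups. The smallest peak width of a list, which was taken to follow the fragment length, was 67 to 87 bp in parental and 94 to 124 bp in resistant libraries, so phenotype and fragment length cannot be told apart. Depth relative to the shallowest library was recovered from the lists with the smallest peak width as a divisor, so it was not independent of that width. It averaged 1.55 ± 0.220 (SD, n = 3) in untreated parental, 2.27 ± 0.559 in oxamate-treated parental, 1.43 ± 0.423 in untreated resistant and 1.08 ± 0.0688 in oxamate-treated resistant libraries. The part of fragment length and depth in the covered bases was not tested. When covered bases were divided by the smallest peak width, the difference between phenotypes became −0.0563 widths per region as a mean over both treatments. Resistant libraries were then lower on average than parental ones without oxamate and higher under it. Treated parental libraries kept the lowest group mean.

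Members were also compared relative to other constitutive regions of the same library. Their log2 ratio to regions near gene ends was −0.72 ± 0.04 in untreated parental, −0.80 ± 0.03 in oxamate-treated parental, −0.67 ± 0.06 in untreated resistant and −0.69 ± 0.07 in oxamate-treated resistant libraries (SD, n = 3). The phenotypes differed by 0.08 (exact permutation p = 0.04, adjusted p = 0.196). To regions between genes the ratios were 0.08 ± 0.04, −0.02 ± 0.01, 0.11 ± 0.04 and 0.11 ± 0.05 in the same order. There the phenotypes again differed by 0.08 (exact permutation p = 0.02, adjusted p = 0.16), and the treatment effect differed between phenotypes by 0.09 (exact permutation p = 0.125, adjusted p = 0.2). The 3 treated parental libraries had negative ratios to regions between genes, and the other 9 had positive ones.

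**Figure D2:**
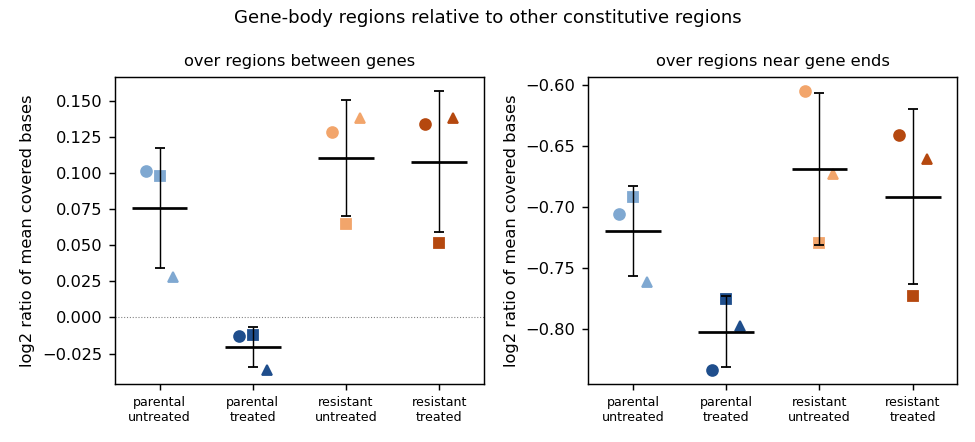
Log2 ratio of mean covered bases of the members to that of constitutive regions between genes (left) and near gene ends (right), by library. Points are libraries (circle, square and triangle for replicates 1, 2 and 3), bars are means and error bars the SD (n = 3); treated parental libraries averaged −0.02 between genes and −0.80 near gene ends, the lowest of the 4 groups in both panels, and neither axis starts at 0.

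By rank no difference passed the test. The percentile is a share of a library's list, so it depends on the length of the list as well as on peak strength. Lists held from 45748 peaks (treated parental replicate 1) to 62414 peaks (treated parental replicate 2), with median percentiles of 37.3 and 27.9. The median percentile of members was 27.2 ± 0.492 in untreated parental, 32.3 ± 4.71 in oxamate-treated parental, 29.8 ± 1.29 in untreated resistant and 31.2 ± 3.62 in oxamate-treated resistant libraries (SD, n = 3). It was 0.751 higher in resistant than in parental libraries (exact permutation p = 0.64) and 3.25 higher in treated than in untreated ones (exact permutation p = 0.1).

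Region by region, the library with fewest covered bases was a treated parental one for 79.5% of members, and treated parental replicate 1 alone held that place for 41.6%. Most bases were covered in an untreated resistant library for 47.2% of members and in a treated resistant one for 33.1%. The median ratio of the highest to the lowest library was 3.42, and 1062 members (23.3%) exceeded 5.

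Host genes numbered 3303, of which 2723 were protein-coding and 531 were long noncoding RNA genes. Among the protein-coding hosts 1983 held 1 member, 274 held 3 or more and 57 held 5 or more. Members were found in 19.0% of the 14316 protein-coding genes longer than 10 kb. Hosts were long, with a median of 88.3 kb against 42.1 kb for all protein-coding genes above 10 kb. Per megabase of gene, however, the number was 4.30 in genes of 10 to 50 kb, 4.72 from 50 to 100 kb, 3.97 from 100 to 200 kb, 2.59 from 200 to 500 kb and 1.02 above 500 kb. Of 69 genes longer than 1 Mb, 50 held no member and the most held was 5. The outer start was open in 12 of 12 libraries for 66.8% of 1745 protein-coding hosts with a placed start, and for 61.9% of 8032 other genes above 10 kb. By chromosome, members per megabase of gene span were highest on chromosome 19 (6.50) and chromosome 17 (5.06) and lowest on chromosome 4 (1.18) and chromosome 13 (1.20).

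**Figure D3:**
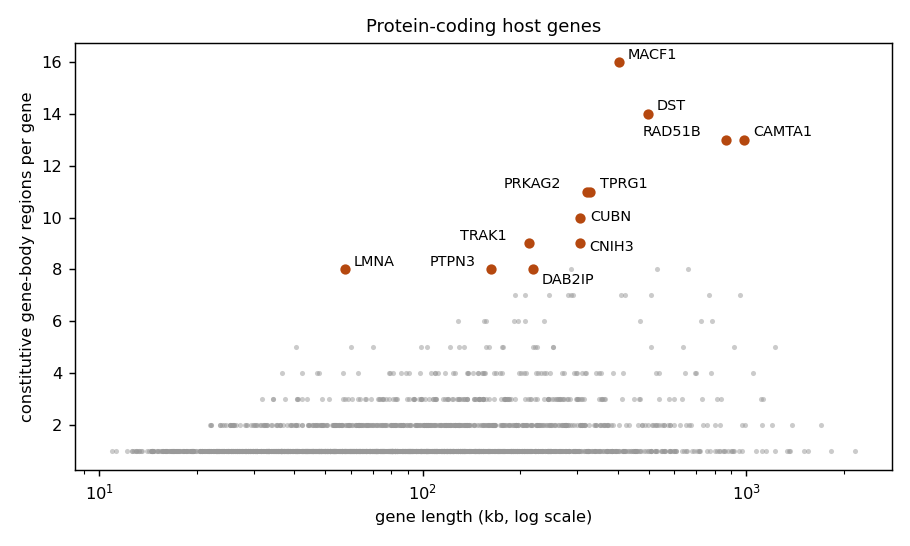
Number of members per protein-coding host gene against gene length (kb, log scale). Each point is a gene and the 12 named hosts are coloured; MACF1 held 16 and LMNA held 8 within 57.5 kb.

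The 12 protein-coding genes with most members were MACF1 with 16, DST with 14, RAD51B and CAMTA1 with 13 each, PRKAG2 and TPRG1 with 11 each, CUBN with 10, TRAK1 and CNIH3 with 9 each, and LMNA, PTPN3 and DAB2IP with 8 each. RAD51B encodes a protein of homologous recombination, CAMTA1 a calmodulin-binding transcription activator and PRKAG2 a regulatory subunit of AMP-activated protein kinase. CUBN encodes the endocytic receptor cubilin, TRAK1 an adaptor that couples mitochondria to kinesin, CNIH3 an auxiliary subunit of AMPA receptors and PTPN3 a tyrosine phosphatase. Noncoding genes with most members were LOC105369844 with 11 and LINC-PINT and PVT1 with 9 each. LMNA had 13.9 members per 100 kb, against 1.32 to 4.92 in the other 11. The outer starts of MACF1, DST, CUBN, DAB2IP and LOC105369844 had no peak in any library, those of CAMTA1, PRKAG2, CNIH3, LMNA and LINC-PINT were open in 12, and those of the other 5 could not be placed.

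**Figure D4:**
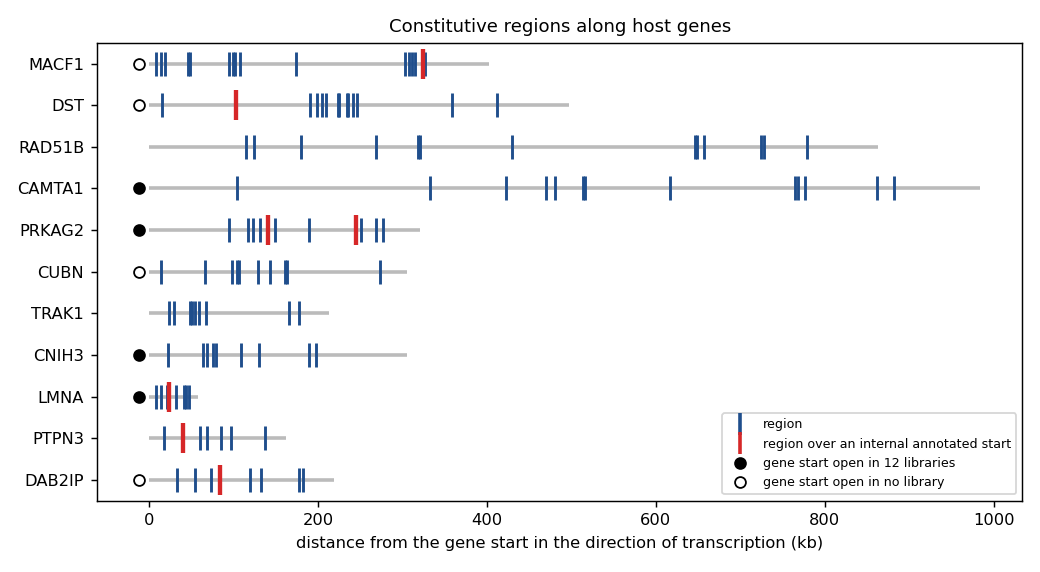
Positions of members along 11 of the 12 leading protein-coding hosts, as distance from the gene start (kb) in the direction of transcription. Grey lines are gene spans, blue ticks are members, red ticks are members over an internal annotated start, and circles show whether the outer start held a peak in 12 libraries (filled) or in none (open), with no circle where it could not be placed. The 8 members of LMNA lie within 57.5 kb, and TPRG1 is left out because its strand was not in the sequence table.

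Members of MACF1 fell into 2 groups along the gene, 10 between 8.38 and 174.6 kb from the start and 6 between 303.5 and 326.9 kb. Their covered bases summed to 9.58, 8.70 and 8.00 kb in untreated parental replicates 1 to 3 and to 5.72, 6.85 and 6.96 kb in treated parental ones. In resistant cells they summed to 11.0, 8.84 and 10.2 kb untreated and to 10.5, 7.53 and 9.18 kb treated. Treated parental libraries were below all others. Group means were 8.76 ± 0.795, 6.51 ± 0.686, 10.0 ± 1.11 and 9.07 ± 1.5 kb (SD, n = 3). The region over the internal start was the widest of the 16, and it covered 1655, 1060, 1697 and 1293 bp in the 4 groups. The region of 1242 bp 107.9 kb from the start varied least in proportion, between 1081 and 1168 bp as group means.

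DST ran from 8.99, 7.37 and 5.89 kb untreated to 3.84, 6.30 and 5.53 kb treated in parental cells, which overlapped. In resistant cells the sums were 9.68, 8.09 and 7.49 kb untreated and 8.96, 6.89 and 8.60 kb treated. One of its members (chr6:56755218-56756419) ranked among the strongest of all, at a median percentile of 0.0296, yet covered 214 bp in 5 libraries and between 451 and 1161 bp in the others.

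Sums in DAB2IP were 5.11, 3.78 and 3.42 kb in untreated parental, 2.79, 3.07 and 2.56 kb in oxamate-treated parental, 7.30, 4.91 and 6.05 kb in untreated resistant and 6.67, 4.86 and 6.12 kb in oxamate-treated resistant libraries. Parental treated libraries again lay below all others. The member 177.1 kb from its start averaged 654 and 478 bp in untreated and treated parental cells and 1331 and 1153 bp in the resistant groups. In LMNA the means were 4.31 ± 0.290, 3.85 ± 0.159, 4.89 ± 0.400 and 4.52 ± 0.457 kb (SD, n = 3). The LMNA region that overlapped the window of the internal start covered 573, 562, 583 and 583 bp in the 4 groups.

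Treated parental libraries covered fewer bases than untreated ones without overlap in 8 of the 12 named hosts (MACF1, RAD51B, CAMTA1, PRKAG2, CUBN, LMNA, PTPN3 and DAB2IP), and in 32.1% of all 3303 hosts. They lay below treated resistant libraries in 9 of 12, against 49.3% of all hosts. Between treated and untreated resistant cells 1 of 12 did not overlap, RAD51B, against 4.42%, and between untreated parental and untreated resistant cells 3 of 12 (RAD51B, TRAK1 and LMNA), against 18.6%. Genes with many members sum over more bases than most hosts.

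Gene lists of pathways were described by the number of genes above 10 kb that held a member, beside the 19.0% and 3.18 members per megabase of all protein-coding genes. That share depended on length. It was 9.39% for genes of 10 to 50 kb, 25.2% for 50 to 100 kb, 34.9% for 100 to 200 kb and 39.8% for 200 to 500 kb. Lists were not matched for length. Those in this paragraph had median lengths of 75.9 to 93.8 kb, against 42.1 kb for all, so a share above 19.0% was no finding by itself. Integrin and focal adhesion genes, which anchor cells to the matrix, held members in 14 of 25, with 6.23 per megabase. ITGA3, an integrin alpha chain, held 3, and the adhesion adaptors BCAR1 and PXN held 2 each. Among Hippo pathway genes 8 of 21 did, at 6.12 per megabase, led by the transcriptional coactivator WWTR1 with 6, the TEAD-binding cofactor VGLL4 with 4 and the transcription factor TEAD1 with 2. Receptor tyrosine kinases had members in 11 of 30, at 4.66 per megabase, with 7 in EGFR, 6 in the collagen receptor DDR2 and 2 in RET. TGF-beta and BMP signalling had 9 of 25, at 6.22 per megabase, and SMAD3, a signal transducer, held 5.

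Glycolysis and lactate genes held members in 8 of 19, which was the highest density of the lists given here, at 12.5 per megabase. Their median length was 39.7 kb. PFKFB3, which sets the level of the glycolytic activator fructose 2,6-bisphosphate, held 3. HK2, a hexokinase, and SLC16A3, a lactate exporter, held 2 each. In PFKFB3 the sums were 1.65, 1.83 and 1.61 kb in untreated parental, 1.55, 1.79 and 2.02 kb in oxamate-treated parental, 2.11, 1.91 and 1.86 kb in untreated resistant and 1.75, 1.55 and 1.58 kb in oxamate-treated resistant libraries, so parental treated and untreated cells overlapped. In HK2 they were 1.09, 0.888 and 0.676 kb, then 0.629, 0.488 and 0.533 kb, then 1.09, 0.787 and 1.03 kb, and 0.954, 0.668 and 1.06 kb, with treated parental libraries below all others. Members lay in 7 of 20 genes for AP-1, RUNX, ETS and other enhancer-binding factors, at 2.29 per megabase and a median length of 174 kb. They lay in 4 of 18 driver genes of pancreatic cancer, at 2.29 per megabase and a median length of 85.6 kb. Long neuronal adhesion and synapse genes had 6 of 30 at 0.201 per megabase, the lowest density, with a median length of 1116 kb. The median number of members per gene was 0 in each list given here except integrins and focal adhesion, where it was 1, and 0 over all genes.

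Covered bases of single regions were then compared by limma over all 24148 regions called in 12 of 12 libraries, with each library centred on its median log2 value. Between phenotypes 130 of 4559 members (2.85%) were higher in resistant cells and 98 (2.15%) lower, against 2.81% and 4.78% of all regions, at a Benjamini-Hochberg adjusted p under 0.05. The split rested on the centring. Without it the limma calls were 1102 higher (24.2% of members) and 2 lower (0.0439%), against 27.5% and 0.157% of all regions. The median difference over all regions was then 0.39 in place of −0.05 on the log2 scale. All 130 higher members were also called without centring. Leaving out the centring raised the phenotype value of every region by the same amount. This favoured higher calls over lower ones and so was no check of either. Members called higher and free of overlap between phenotypes numbered 60 (1.32% of all members), against 302 regions (1.25% of all regions). Of the 98 lower members 52 kept a negative value and 2 were called without centring, and 0 were free of overlap, against 0.0207% of all regions, so no lower region is described. By percentile rank the limma calls were 133 stronger (2.92% of members) and 239 weaker (5.24%) in resistant cells, against 4.71% and 5.04% of all regions. Among those called in the same direction were 8 of the 130 higher and 18 of the 98 lower members. With 1 library left out, the higher count fell to 28 without untreated resistant replicate 1 or 3, 31 without treated resistant replicate 3, 32 without treated resistant replicate 1, 39 without untreated parental replicate 3, 65 without untreated parental replicate 1 and 76 without untreated resistant replicate 2. The lower count fell to 1 without untreated resistant replicate 3, 4 without untreated resistant replicate 1 or treated resistant replicate 3, and 6 without untreated parental replicate 3 or treated resistant replicate 1. It was 19, 58, 33 and 44 without untreated parental replicate 1, untreated parental replicate 2, treated parental replicate 1 and untreated resistant replicate 2.

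Among called members without overlap, the largest difference belonged to a region in AFAP1L2 (chr10:114303878-114304917), which encodes an actin filament-associated adaptor protein. It covered 165, 227 and 139 bp in untreated parental, 77, 150 and 135 bp in oxamate-treated parental, 811, 716 and 840 bp in untreated resistant and 865, 1039 and 705 bp in oxamate-treated resistant libraries. All 6 resistant libraries exceeded all 6 parental ones, by 2.09 ± 0.19 (SE) on the centred log2 scale (limma adjusted p = 0.000595). By percentile rank the phenotypes did not pass the test (limma adjusted p = 0.961), so the called extent differed and the peak strength was not shown to.

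In COA1, which encodes a factor for assembly of mitochondrial respiratory complexes, a region 28160 bp from a gene end (chr7:43699911-43701363) covered 348, 315 and 266 bp in untreated parental cells and 91, 91 and 116 bp in treated ones. In resistant cells it covered 933, 858 and 829 bp untreated and 912, 605 and 912 bp treated. The phenotypes differed by 1.82 ± 0.15 (SE; limma adjusted p = 0.000152), and the effect of oxamate in parental cells was −1.19 ± 0.21 (SE; limma adjusted p = 0.0227). The parental call was lost without untreated parental replicate 1, 2 or 3 or untreated resistant replicate 3 (limma adjusted p up to 0.0923). Its rank did not pass the test between phenotypes (limma adjusted p = 0.757).

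A region in IL16, a cytokine gene (chr15:81265751-81266847), covered 402, 311 and 128 bp in untreated parental, 140, 122 and 236 bp in oxamate-treated parental, 1097, 730 and 693 bp in untreated resistant and 1054, 692 and 918 bp in oxamate-treated resistant libraries. It was 1.64 ± 0.24 (SE) higher in resistant cells (limma adjusted p = 0.00837). Its rank moved in the opposite direction, 18.0 percentiles weaker in resistant cells (limma adjusted p = 0.0236). The phenotype calls by covered bases in AFAP1L2, COA1 and IL16 held in all 12 fits that left out 1 library.

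**Figure D5:**
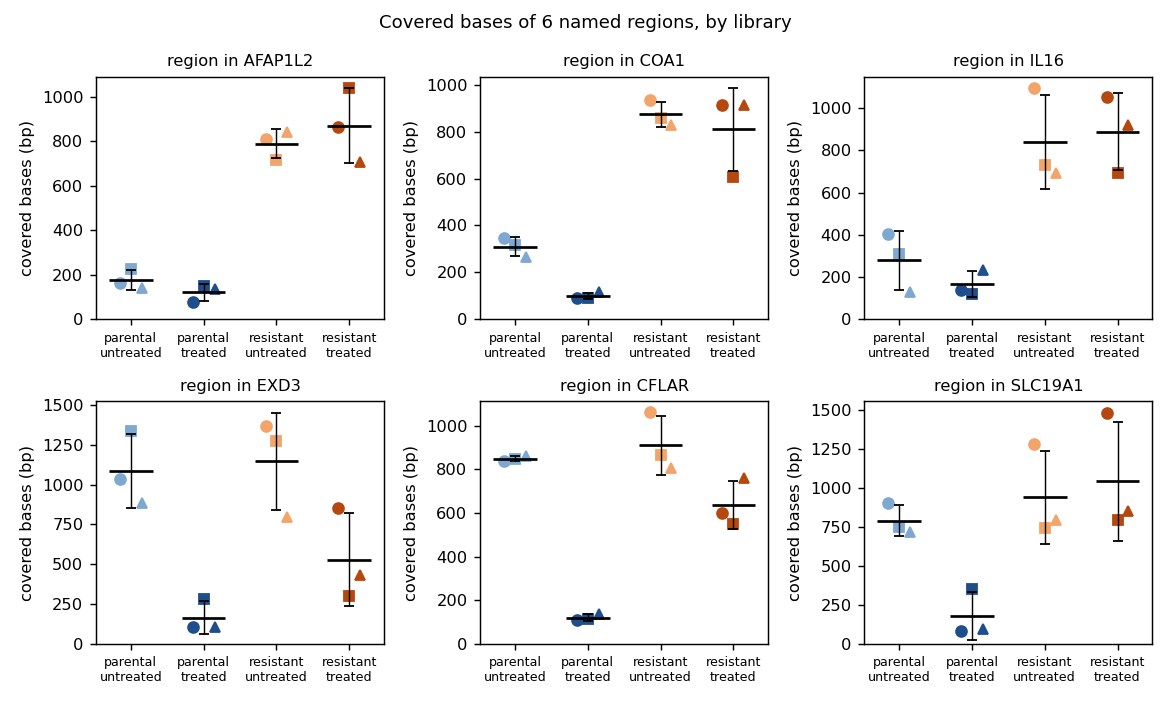
Covered bases (bp) of 6 named regions in each library. Points are libraries (circle, square and triangle for replicates 1, 2 and 3), bars are group means and error bars the SD (n = 3). Regions in AFAP1L2, COA1 and IL16 were wider in the 6 resistant libraries, and those in EXD3, CFLAR and SLC19A1 fell in treated parental libraries.

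Within parental cells 2 members (0.0439%) were higher and 18 (0.395%) lower under oxamate by limma, against 0.0373% and 0.526% of all regions. All 18 lower members were free of overlap between groups, as were all 127 regions called lower among the 24148. Without centring, 1 member (0.0219%) was higher and 275 (6.03%) lower, against 0.0166% and 6.87% of all regions, with a median difference of −0.39 over all regions. By rank 0 members were called in parental cells. The count of 18 was 4, 5 and 11 without untreated parental replicate 2, 1 and 3, and 50 and 42 without treated parental replicate 2 and 3. The 2 higher calls were lost without untreated parental replicate 2 or 3, untreated resistant replicate 3 or any treated resistant replicate, were 1 without untreated parental replicate 1 or untreated resistant replicate 1 or 2, and were 5 without treated parental replicate 2.

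The clearest was a region shared by CFLAR, which encodes an inhibitor of caspase-8 activation, and its antisense gene CFLAR-AS1 (chr2:201148594-201150017). It covered 837, 850 and 860 bp in untreated parental cells and 109, 112 and 138 bp in treated ones. In resistant cells it covered 1064, 866 and 805 bp untreated and 602, 551 and 761 bp treated. Parental treatment changed it by −2.38 ± 0.20 (SE; limma adjusted p = 0.000313), which held in all 12 fits that left out 1 library. It was also the single member called for treatment over both phenotypes, at −1.40 ± 0.14 (SE; limma adjusted p = 0.00497), and the single one called for a difference of the treatment effects, at 1.95 ± 0.28 (SE; limma adjusted p = 0.0421), against 0.0207% and 0.0248% of all regions. That last call was lost without any of the 3 untreated parental or any of the 6 resistant libraries, at an adjusted p of up to 0.181 by limma. Leaving out treated parental replicate 1, 2 or 3 gave 2, 10 and 4 members for the difference of effects, and leaving out treated parental replicate 2 or 3 or treated resistant replicate 1 gave 10, 5 and 2 lower members for treatment. Without centring, 22 members (0.483%) were lower for treatment and 14 (0.307%) had a positive difference of effects, against 0.845% and 0.344% of all regions. In the opposite directions there were 0, against 0.00414% each.

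EXD3 held a region (chr9:137411233-137412813) that covered 1037, 1338 and 884 bp in untreated parental and 104, 282 and 103 bp in treated parental libraries. In resistant libraries it covered 1367, 1275 and 797 bp untreated and 854, 297 and 433 bp treated. Parental treatment changed it by −2.43 ± 0.38 (SE; limma adjusted p = 0.0153), and the call was lost without untreated parental replicate 1 or 2 (limma adjusted p up to 0.0722). Its rank turned the other way, 16.5 percentiles stronger under oxamate, and did not pass (limma adjusted p = 0.341). SLC19A1, the reduced folate carrier, held a region over an internal start (chr21:45541101-45542582) with 902, 750 and 718 bp untreated and 80, 353 and 93 bp treated in parental cells, a change of −2.06 ± 0.41 (SE; limma adjusted p = 0.0494). In resistant cells it covered 1285, 741 and 797 bp untreated and 1482, 797 and 849 bp treated. The call in SLC19A1 lasted in 1 of 12 fits, the one without treated parental replicate 2.

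Higher under oxamate in parental cells was a region in the immunoglobulin kappa locus IGK (chr2:89833259-89833892), with 157, 173 and 175 bp untreated and 459, 633 and 458 bp treated (2.06 ± 0.41 SE; limma adjusted p = 0.0480). It covered 156, 459 and 147 bp in untreated and 167, 159 and 147 bp in treated resistant libraries. This call lasted in 3 of 12 fits with 1 library left out, those without treated parental replicate 3 or untreated resistant replicate 1 or 2.

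In resistant cells 0 members passed the limma test in either direction, against 0% of all regions, with unadjusted p-values under 0.05 for 56 higher (1.23%) and 79 lower (1.73%) members, against 1.11% and 1.39% of all regions. No member was called there by rank or without centring either. The smallest p-values belonged to regions that did not pass. VGLL4 (chr3:11591089-11592956) covered 1289, 752 and 832 bp untreated and 1352, 1239 and 1468 bp treated, and DGCR2 (chr22:19115596-19116138) 168, 151 and 111 bp and 543, 283 and 211 bp. PTPRN2, which encodes a phosphatase-like protein of secretory granules (chr7:158360060-158361099), covered 1022, 1029 and 532 bp untreated and 360, 314 and 174 bp treated. MREG, the melanoregulin gene (chr2:216006111-216007467), covered 1309, 1114 and 1001 bp and 789, 461 and 827 bp. Their limma adjusted p was 0.999 each.

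In DAB2IP 2 members were called higher in resistant cells, and in CAST, CUBN and TPRG1 2 each were called lower, against 2.81% and 4.78% of all regions. These directions are relative to the median of each library. Summed over all their members, CUBN and TPRG1 had more covered bases in resistant than in parental group means, both with and without oxamate. AMZ1, ARHGEF3, LIPC and LIPC-AS1 had 1 in each direction, and no other host had more than 1 called. Members over an internal start made up 18 of the 130 higher and 18 of the 98 lower calls. These were 3.97% of the 453 members with an internal start in each direction, against 2.73% and 1.95% of those without.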

How the data were processed

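The authors aligned paired-end reads to hg38 with Bowtie2 2.1.0, called broad peaks per library with MACS2 and deposited 12 peak lists. The deposited columns used were position, fold over background (a ratio), −log10 p and −log10 q; the smallest −log10 q was 1.00. The deposited score, derived from −log10 q, was not used. The MACS2 version, genome size and blacklist are not given in the sources used here, and without read counts no count test could be run. The 671854 peaks on chromosomes 1 to 22 and X were merged (Python 3.11.15, numpy 2.4.6, pandas 2.3.3). Genes were 59098 RefSeq entries (GRCh38.p14). Absolute depth is unknown. Relative depth came from fold and −log10 p, divided by the smallest peak width of the list. Group comparisons used exact permutation tests over libraries (400 assignments within strata, smallest p 0.005, or 20 between pairs of groups, smallest p 0.1) and limma 3.58.1 (R 4.3.3, empirical Bayes with trend) on log2 covered bases.

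Named hosts were the 12 protein-coding and 3 noncoding genes with most members. Named regions were, per contrast and direction, up to 3 called members without overlap and with the largest difference, otherwise the 2 smallest p-values, and the 5 best-ranked members; a named region and a gene list are not reported here. Members, gene lists and rules were chosen with earlier results of these data known. Steps were tested on simulated data. Same-numbered libraries deviated together only weakly (correlation −0.0868 to 0.155, against −0.152 to 0.118 for other pairs). The highest values were between untreated and treated resistant libraries, 0.128 for replicate 1 and 0.155 for replicate 2. The main fit used no block. Alternatives were stricter q, equal peak numbers, width, distance and coverage limits, protein-coding genes, no centring, no trend, ranks, a block for the replicate number and the omission of each library.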

Additional observations from a re-analysis of the deposited data

Results flagged for a closer look

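One result was marked for a closer look because the effect of oxamate differed between parental and resistant cells by a test of the difference itself. For the region in CFLAR and CFLAR-AS1 the treatment difference in resistant cells exceeded that in parental cells by 1.95 ± 0.28 (SE) on the log2 scale (limma adjusted p = 0.0421, 12 libraries). All 3 treated parental libraries lay below all other libraries, between 109 and 138 bp. In resistant cells the treated libraries (551, 602 and 761 bp) also lay below the untreated ones (805 to 1064 bp), and that change did not pass the test (limma adjusted p = 0.999). With a replicate block the adjusted p of the difference was 0.128, and by percentile rank 0.747. The part of fragment length and depth in this difference was not tested.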

How the results depend on the processing

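Of 151 recomputed library-level comparisons, 142 kept their direction and their side of the threshold, 9 reversed and 0 passed adjustment. With the smallest p that these tests allow, a single comparison could not have passed alone. The phenotype difference in rank, small in the main value, became −6.87 percentiles with −log10 q of at least 3, −0.482 with equal numbers of peaks, −4.07 with peaks at least 124 bp wide and −0.480 where at least 50% of a region was covered. With the last filter the ratios to regions near gene ends became −0.0118 (phenotype), 0.00532 (treatment) and −0.00514 (difference of effects). Dividing covered bases by the smallest peak width gave −0.0563 for phenotype and −0.503 for resistant against parental cells without treatment. Under treatment that difference stayed positive. Leaving out members of fixed width, an alternative chosen after seeing the data, kept all 16. The number of members was 2299 with −log10 q of at least 3 and 689 with 50% coverage. The cause was not tested.

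With 1 library left out, the phenotype difference in covered bases ranged from 128 to 167 bp, and it was 162 bp without untreated resistant replicate 2 (exact permutation adjusted p = 0.04), where the ratio to gene ends of 0.0962 also passed (range 0.0649 to 0.101). The resistant treatment effect ranged from −63.6 to 9.60 bp, reaching 4.09 bp without untreated resistant replicate 1 and 9.60 bp without treated resistant replicate 2. The rank difference between phenotypes ranged from −0.334 without treated parental replicate 2 to 2.00, and was −0.245 without treated resistant replicate 2.

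Counts of called members moved with the fit. Calls between phenotypes without centring were 1102 higher and 2 lower (24.2% and 0.0439% of members, 27.5% and 0.157% of all regions). By rank they were 133 and 239 (2.92% and 5.24% of members, 4.71% and 5.04% of all regions). Without trend they were 77 and 31 (1.69% and 0.680% of members, 1.44% and 1.18% of all regions). With −log10 q of at least 3 there were 79 higher of 2299 members (3.44%, against 3.91% of all regions in that setting). Calls lower with treatment were 22, 0 and 2 without centring, by rank and without trend. In parental cells the higher calls were 1, 0, 0 and 1 without centring, by rank, without trend and with −log10 q of at least 3, and the lower calls 275 without centring and 0 by rank. For the difference of effects they were 14, 0, 2 and 2 in the same 4 settings. Leaving out each library gave ranges of 28 to 155 and 1 to 108 (phenotype), 1 to 10 (treatment, lower), 0 to 5 and 4 to 50 (parental) and 0 to 10 (difference of effects). Same-numbered libraries correlated between −0.0868 and 0.155, highest between untreated and treated resistant replicate 2. The numbers were not taken as pairs in the main fit. The replicate block gave 71 higher and 17 lower between phenotypes (1.56% and 0.373% of members, 1.57% and 0.816% of all regions). It gave 0 higher in parental cells and 0 for the difference of effects. Under the block the parental treatment calls in SLC19A1 (limma adjusted p = 0.0735), COA1 and IGK (both just above the threshold) were lost.

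By rank the difference turned in IL16 (−18.0), EXD3 (16.5), VGLL4 (−5.45), DGCR2 (−10.3) and MREG (4.4 percentiles, higher meaning stronger). What extent can show is limited, since a library's peak width can depend on fragment length and depth. Their part was not tested, and neither absolute depth nor a counting interval was at hand.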

Other observations

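A small group of members had nearly the same extent in every library. In 46 members (1.01%) the covered bases differed by at most 10 bp over the 12 libraries. Their median width was 195 bp, their median percentile 0.842, against 30.9 for the other members, and 0 of them lay over an annotated internal start. They made up 25 of the 50 members with the best median rank and 24 of the 40 with a median percentile under 1. Of the same 40, 9 lay over an internal start.

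Several of the best-ranked members show the pattern. A region of 266 bp in DISC1FP1 (chr11:90807881-90808146) covered 266 bp in 12 of 12 libraries, with 32.7- to 57.4-fold enrichment over background. Regions in LINC02663 (chr10:9702424-9702583) and CNTN5 (chr11:99185864-99186002) covered 156 to 160 and 134 to 138 bp. The exception was the region in DST, which covered 214 to 1161 bp. In the other 3 the extent differed by at most 4 bp over the 12 libraries.

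After centring, a region of constant extent takes the value of the centring itself. DISC1FP1 thus had −0.44 on the log2 scale for phenotype (limma adjusted p = 0.0939) while its covered bases were identical, which is the size of the shift between centred and uncentred values over all regions.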
